A study of Mus musculus with 9 samples.

Results

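The genes described here are 8 members of the cell death machinery, namely the initiator caspases Casp2, Casp8 and Casp9, the pore-forming proteins Bax and Bak1, the pro-survival proteins Bcl2l1 and Mcl1, and the BH3-only protein Bcl2l11. Their probe sets were taken by gene symbol from GEO's annotation of the array. Of the 8 genes, 7 had a probe set of their own, 1 each, among 35557 probe sets in all. Bax had none in that annotation and was not analysed here. Casp8 was too dim to be tested, so 6 members were tested among 13182 genes.

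RNA was profiled on 1-colour arrays in mouse embryonic stem (ES) cells of genotype Dgcr8 -/-, a genotype that the mock cells shared. Dgcr8 encodes a protein that most microRNA precursors need for processing, so such cells lack most of their own microRNAs and a transfected mimic, a synthetic double-stranded microRNA, can be read against a low background. One group received a let-7c mimic and another a miR-294 mimic, each at 50 nM, and the third was mock transfected. The medium of all groups lacked leukaemia inhibitory factor (LIF), and RNA was taken 12 h after transfection, with 3 biological replicates per group and 9 arrays in all. No group received a control mimic, so in a difference from mock the microRNA and the transfected RNA as such cannot be told apart.

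In the mitochondrial pathway of apoptosis, Bax and Bak1 open pores in the outer mitochondrial membrane, and cytochrome c released through them helps Apaf1 to activate caspase-9. Bcl2l1 (Bcl-xL) and Mcl1 hold Bax and Bak1 in check, and Bcl2l11 (Bim) relieves that check and can activate the pore formers. Caspase-8 is activated at death receptors on the cell surface, and caspase-2 in a complex of its own, the PIDDosome, built on Pidd1 and Cradd. ES cells are known to undergo apoptosis readily after DNA damage.

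A microRNA finds its targets mainly through its seed, bases 2 to 8, which pairs with complementary sites in messenger RNAs. The mature sequences that correspond to the mimics are shown with relatives of the same seed. Those of let-7c and miR-294 differ in the seed and outside it. They are from RefSeq (GRCm38.p6), 5′ to 3′, with the seed in capitals; the sources used here do not give the mimics' own sequences.
mmu-let-7c-5p: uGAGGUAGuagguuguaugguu
mmu-let-7a-5p: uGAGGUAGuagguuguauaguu
mmu-miR-294-3p: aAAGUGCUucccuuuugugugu
mmu-miR-291a-3p: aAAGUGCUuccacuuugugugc
mmu-miR-295-3p: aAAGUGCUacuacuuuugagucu
Mature let-7c is encoded at chr15:85706616-85706637 (+) and at chr16:77599672-77599693 (+), and miR-294 at chr7:3220691-3220712 (+). Among the 1679 mature microRNA names from RefSeq searched here, 11 carry the let-7c seed and 5 carry the miR-294 seed. The search did not cover every chromosome, so these counts may be incomplete. miR-291a-3p and miR-295-3p belong with miR-294 to the miR-290 family, a group of microRNAs made in large amounts by ES cells that can process them. Casp2 is a published target of that family, while Bcl2l1 has been reported as a let-7 target in human cells.

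Levels are log2 intensities as deposited, read as log2 from their range since no header names the scale; ± after a level is the SD (n = 3) and ± beside a difference gives the standard error (SE). Adjusted p-values come from limma with Benjamini-Hochberg adjustment over all tested genes, and genes below 0.05 were called. Array medians lay between 7.36 and 7.41, and the lowest correlation between arrays of the same group was 0.995. All 8 listed ES cell markers, among them Pou5f1, Sox2 and Nanog, lay above the 40th percentile of every array. Their mean level ranged from 12.27 to 12.32 with mock, 12.09 to 12.10 with let-7c and 12.36 to 12.42 with miR-294. The mean of the 4 neurectoderm markers, of which Zic1 was below that percentile on all arrays, was 7.78 to 7.86 with mock, 8.01 to 8.12 with let-7c and 7.80 to 7.94 with miR-294. Over all arrays Nes had the widest range of them (7.64 to 8.72). Pax6 (8.55 to 8.85), Sox1 (8.64 to 8.96) and Zic1 (5.91 to 6.12) varied far less, so that mean need not stand for each marker. The mean levels of markers of fibroblast feeders (6 genes, Postn and Dcn below the percentile throughout), primitive endoderm (5 genes, Sox17 below throughout) and trophoblast (5 genes, Cdx2 and Elf5 below throughout) overlapped between all groups, within 6.95 to 7.26, 7.09 to 7.37 and 7.28 to 7.41. What part any of these shifts has in the values below was not tested.

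The members responded differently to the mimics. Casp2 fell to 43.6% of its mock level with miR-294, a larger change than in any other tested member, and Bak1, Bcl2l11 and Mcl1 fell with it by smaller amounts. With let-7c, Bak1 and Mcl1 rose slightly, and Casp2 fell slightly. Casp9 and Bcl2l1 were not called against mock with either mimic. In whole-cell RNA, fewer cells with a transcript and less of it per cell cannot be told apart.

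**Figure D1:**
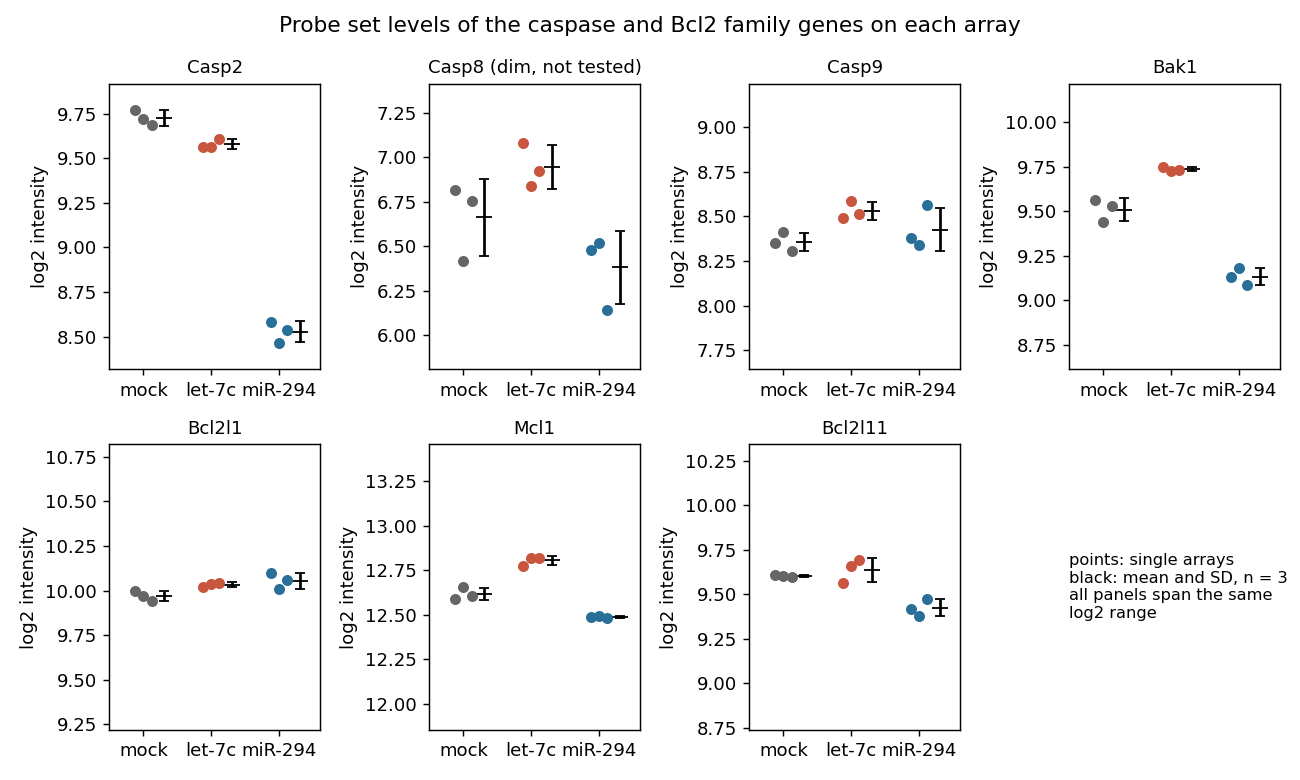
Log2 intensity of the 7 members with a probe set on each of the 9 arrays, with 1 panel per gene and the groups along the x axis; points are arrays and black bars the mean and SD (n = 3). Casp2 with miR-294 (8.46 to 8.58) lies far below the other groups, Bak1 and Mcl1 form 3 separate levels, and the panels share one log2 span although their origins differ.

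Among the initiator caspases, Casp2 (probe set 10537728) read 9.77, 9.72 and 9.69 with mock, 9.56, 9.56 and 9.61 with let-7c, and 8.58, 8.46 and 8.54 with miR-294. The miR-294 arrays were the lowest by a wide gap, 0.98 log2 units below the lowest let-7c array and 1.11 below the lowest mock array. The let-7c arrays lay just below the mock arrays without overlap. The difference from mock was -1.20 ± 0.05 with miR-294 (adjusted p = 3.04e-08), the 38th largest fall among the 13182 tested genes. On a linear scale this is a 2.30-fold fall.

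With let-7c Casp2 fell by 0.15 (SE 0.05, adjusted p = 0.0352), to 90.2% of mock. That call ended when any 1 let-7c array (0.0514 to 0.0846) or any 1 mock array (0.05001 to 0.121) was left out, with no filter on dim genes (0.0748) and under quantile normalization (0.0599), over a range of 0.0197 to 0.121. Between the mimics the Casp2 level differed by 1.05 ± 0.05 (adjusted p = 3.04e-08), let-7c being the higher.

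Casp9 (probe set 10510034), the caspase of the apoptosome, read 8.35, 8.41 and 8.31 with mock, 8.49, 8.59 and 8.51 with let-7c, and 8.38, 8.34 and 8.56 with miR-294. All let-7c arrays lay above all mock arrays, while replicate 3 of miR-294 stood among the let-7c values and the other two among the mock values. The difference with let-7c was 0.17 ± 0.06 and narrowly missed the threshold (adjusted p = 0.0550; 0.0228 to 0.160 over the alternatives). It passed with a stricter filter on dim genes (0.0356), with only the 2 groups fitted (0.0301) and without miR-294 replicate 3 (0.0228). With miR-294 the difference was 0.07 ± 0.06 (adjusted p = 0.382; 95% interval -0.07 to 0.21). Between the mimics it was 0.10 ± 0.06 (adjusted p = 0.188), and without miR-294 replicate 3 it was 0.17 and called (0.0243).

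Casp8 (probe set 10346564), the death receptor caspase, lay near the level below which genes were left out, the 40th percentile of the array (6.84 to 6.90). It read 6.82, 6.42 and 6.76 with mock, 7.08, 6.84 and 6.92 with let-7c, and 6.48, 6.52 and 6.14 with miR-294, and exceeded that percentile on only 2 arrays, both of let-7c. Every let-7c array was above every mock and miR-294 array, while the mock and miR-294 arrays overlapped. When no filter was applied and 19938 genes were tested, the differences from mock were 0.28 ± 0.12 with let-7c (adjusted p = 0.151) and -0.28 ± 0.12 with miR-294 (adjusted p = 0.118). In that setting the mimics differed by 0.57 ± 0.12 (adjusted p = 0.00397), higher with let-7c.

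Bak1 (probe set 10449303) was the only pore former with a probe set. It read 9.56, 9.44 and 9.53 with mock, 9.75, 9.73 and 9.73 with let-7c, and 9.13, 9.18 and 9.09 with miR-294. The groups formed 3 separate levels, with let-7c highest and miR-294 lowest. Bak1 rose with let-7c by 0.23 ± 0.05 (adjusted p = 0.00449), and it fell with miR-294 by 0.38 (SE 0.05, adjusted p = 8.66e-05), to 77.0% of mock. The mimics differed by 0.60 ± 0.05 (adjusted p = 1.34e-06), a 1.52-fold higher level with let-7c. None of these 3 calls ended under the alternatives tried, in which the highest adjusted p was 0.0236.

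The pro-survival genes Mcl1 and Bcl2l1 did not follow the same pattern. Mcl1 (probe set 10494306), whose protein is short-lived and holds Bak1 in check, read 12.59, 12.66 and 12.61 with mock, 12.78, 12.82 and 12.82 with let-7c, and 12.49, 12.49 and 12.48 with miR-294. As for Bak1, let-7c was highest, miR-294 lowest and no groups overlapped. Mcl1 rose with let-7c by 0.19 ± 0.04 (adjusted p = 0.00600), to 114% of mock.

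With miR-294 Mcl1 fell by 0.13 (SE 0.04, adjusted p = 0.0248), to 91.4% of mock. This call ended without miR-294 replicate 2 (0.0573) or 3 (0.0648), without mock replicate 2 (0.0953) or 3 (0.0537) and with no filter on dim genes (0.0563); the lowest value over the alternatives was 0.00131. Between the mimics the difference was 0.32 ± 0.04 (adjusted p = 5.84e-05), a 1.25-fold higher level with let-7c that was called under every alternative tried.

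Bcl2l1 (probe set 10488655), which encodes Bcl-xL, read 9.998, 9.97 and 9.94 with mock, 10.02, 10.04 and 10.04 with let-7c, and 10.10, 10.01 and 10.06 with miR-294. Both mimic groups lay just above mock without overlap, by gaps of 0.021 and 0.011, and overlapped each other. Its differences from mock were 0.07 ± 0.04 with let-7c (adjusted p = 0.281; 95% interval -0.03 to 0.16) and 0.09 ± 0.04 with miR-294 (adjusted p = 0.124; -0.01 to 0.18). The latter passed only when arrays were centred on their 75th percentile (0.0421; up to 0.284 over the alternatives). The lower end of the interval for let-7c, -0.03 on the log2 scale, is for RNA at 12 h only. Protein was not measured, and whether let-7c acts on Bcl2l1 was not tested. The mimics differed by -0.02 ± 0.04 (adjusted p = 0.700; 95% interval -0.12 to 0.07).

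Bcl2l11 (probe set 10475866), for the BH3-only protein Bim, read 9.61, 9.60 and 9.60 with mock, 9.56, 9.66 and 9.69 with let-7c, and 9.42, 9.38 and 9.47 with miR-294. The let-7c arrays straddled the tight mock values, and the miR-294 arrays lay below both groups. Bcl2l11 fell with miR-294 by 0.18 (SE 0.05, adjusted p = 0.0112), to 88.3% of mock, and kept this call under every alternative tried (up to 0.0467, without miR-294 replicate 2). With let-7c the difference was 0.04 ± 0.05 (adjusted p = 0.615; 95% interval -0.07 to 0.14). Between the mimics Bcl2l11 differed by 0.21 ± 0.05 (adjusted p = 0.00277), again with the higher level in let-7c.

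**Figure D2:**
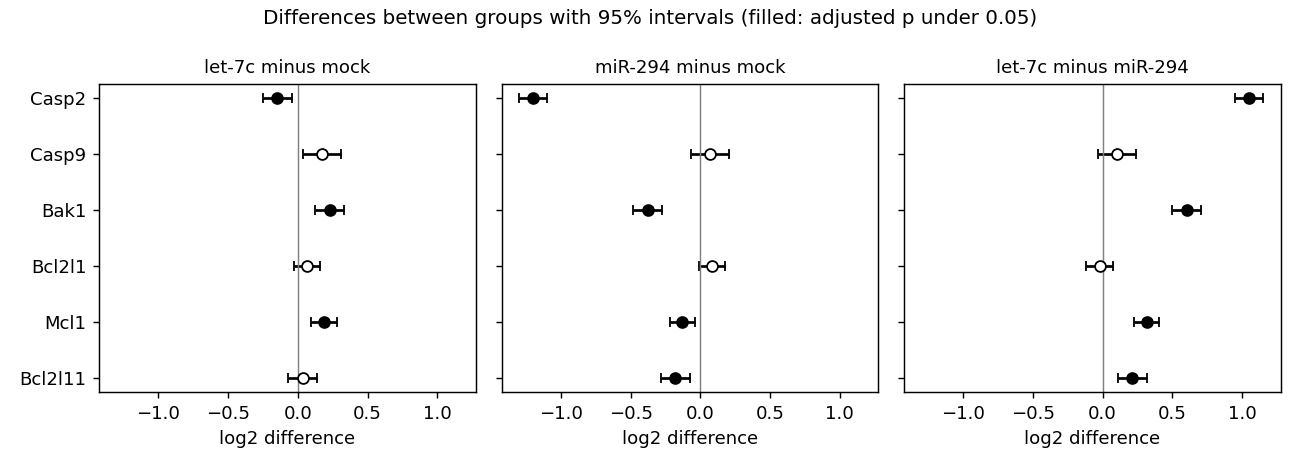
Log2 differences of the 6 tested members in the 3 comparisons, 1 panel each, with 95% intervals from limma; filled points have an adjusted p below 0.05. Casp2 stands at -1.20 with miR-294 and every other difference lies between -0.38 and 0.60 apart from that of Casp2 between the mimics (1.05).

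Over the 6 tested members, 2 rose and 1 fell with let-7c against mock, where 28.7% of all tested genes were called (13.9% higher and 14.8% lower). With miR-294, 4 fell and 0 rose, where 41.9% of all tested genes were called (20.7% higher and 21.1% lower). Between the mimics, 4 were higher with let-7c and 0 lower, where 50.8% of all tested genes were called (26.2% higher and 24.5% lower). At an unadjusted p below 0.05 in limma, 0 members rose with miR-294 and 0 were lower with let-7c than with miR-294. The share of all tested genes at that unadjusted threshold is not given here, so these counts have no background beside them. The arrays of the groups did not overlap for 5 members with let-7c (43.9% of all genes), for 5 with miR-294 (53.8%) and for 4 between the mimics (57% of all genes). With so wide a response and so few members, these counts do not set the members apart from other genes. The members' median difference was 0.12 with let-7c, -0.15 with miR-294 and 0.27 between the mimics, against 0.02, 0.02 and -0.0057 over all tested genes. The comparisons with mock share the mock arrays, and each one's values stand for themselves.

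The SD of a tested member within a group ran from 0.0065 (Mcl1 with miR-294, Bcl2l11 with mock) to 0.119 (Casp9 with miR-294), while the median over all tested genes was 0.057 (mock), 0.064 (miR-294) and 0.068 (let-7c). Casp9 with miR-294 was thus the member group most spread over its replicates. Among the differences called, that of Mcl1 with miR-294 was the smallest (0.13) and ranked 6754th by size among the 13182 genes, whereas Casp2 ranked 39th. The median absolute difference with miR-294 over all tested genes was also 0.13.

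Genes with the profile most like that of a called member were sought by Pearson's r over the 9 arrays, which mostly reflects the 3 group levels and is a description. For Casp2 these were Cep55 (r = 0.999; mean 11.47 with mock, 11.33 with let-7c and 10.38 with miR-294), Kdm2a (0.999) and Sos1 (0.997). For Bak1 they were Wsb2 (0.990), Serpinb9b (0.990; 9.54, 10.17 and 8.33 in the same order) and Jazf1 (0.989). Mcl1 was most like Id1 (0.995; 9.96, 10.94 and 9.36), Mbnl1 (0.994) and Atrnl1 (0.992). Bcl2l11 was most like Trim12a (0.984), Ppp1r11 (0.978) and Atp2c1 (0.978).

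The other genes of the pathway were taken from 10 lists of 55 genes arranged by role. Of these, 50 had a probe set of their own and 38 were tested. With let-7c 9 rose and 3 fell (31.6%, against 28.7% of all genes), and with miR-294 7 rose and 8 fell (39.5%, against 41.9%). Between the mimics 12 were higher with let-7c and 8 lower (52.6%, against 50.8%). The genes counted as higher with let-7c, against mock and between the mimics, include Bcl2, which passed the filter only through its let-7c arrays. These shares are near the background, so the results below concern single genes. The median differences, -0.0043, 0.02 and 0.03, were near those of all genes.

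The 2 partners that activate caspase-2 moved apart with let-7c. Pidd1, the scaffold of the PIDDosome, read 8.38, 8.40 and 8.43 with mock, 7.76, 7.80 and 8.001 with let-7c, and 8.40, 8.51 and 8.50 with miR-294. The let-7c arrays were all well below the others. Pidd1 fell by 0.55 with let-7c (SE 0.06, adjusted p = 0.000126), was not called with miR-294 (0.07 ± 0.06, adjusted p = 0.426), and differed between the mimics by -0.61 ± 0.06 (adjusted p = 1.07e-05). Cradd, its adaptor (RAIDD), rose with let-7c by 0.13 ± 0.04 (adjusted p = 0.0441), but that call ended under 12 of 18 alternatives (up to 0.135), among them leaving out let-7c replicate 1 or 2, any 1 miR-294 array or any 1 mock array. In the comparison with miR-294, Casp2 itself had the large fall and neither partner was called.

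In the apoptosome and mitochondrial release list, 1 of 7 genes rose with let-7c, and 1 rose and 2 fell with miR-294. Over all tested genes, 13.9% rose with let-7c, and 20.7% rose and 21.1% fell with miR-294. Aifm1, the mitochondrial flavoprotein AIF, read 9.99, 10.10 and 10.09 with mock, 9.82, 9.95 and 10.005 with let-7c, and 9.47, 9.42 and 9.44 with miR-294. The miR-294 arrays were the lowest by far, and the other groups overlapped. It fell by 0.62 with miR-294 (SE 0.05, adjusted p = 7.5e-06). Apaf1, the core of the apoptosome, fell by 0.18 (SE 0.04, adjusted p = 0.00854) and the protease gene Htra2 rose by 0.26 ± 0.06 (adjusted p = 0.00410). Diablo, whose protein (Smac) blocks caspase inhibitors, rose with let-7c by 0.23 ± 0.05 (adjusted p = 0.0107). The cytochrome c gene Cycs was not called against mock (-0.14 ± 0.08 with let-7c and 0.08 ± 0.08 with miR-294).

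Of the other pro-survival genes, Bcl2 rose with let-7c (0.34 ± 0.06, adjusted p = 0.00136) and was 0.08 ± 0.06 with miR-294 (adjusted p = 0.280). Bcl2 was dim, at mean levels of 6.78 with mock and 7.13 with let-7c. Every mock array of Bcl2 was below the filter percentile, and Bcl2 was tested only through its let-7c arrays, where it was high. Its rise is thus a description and no support for a response. Bcl2l2 was called with neither mimic.

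Of the 7 other BH3-only genes, 1 rose with let-7c, 3 rose with miR-294 and 0 fell with either. The background shares of called genes were 13.9% (higher) and 14.8% (lower) for let-7c, against 20.7% (higher) and 21.1% (lower) for miR-294. Bid, cut by caspase-8 to its active form, read 8.55, 8.48 and 8.40 with mock, 8.71, 8.80 and 8.85 with let-7c, and 8.84, 8.78 and 8.87 with miR-294. Both mimic groups lay above mock and overlapped each other. Bid rose by 0.31 ± 0.05 with let-7c (adjusted p = 0.00173) and by 0.35 ± 0.05 with miR-294 (adjusted p = 0.000404), and the mimics differed by -0.04 ± 0.05 (adjusted p = 0.558; 95% interval -0.16 to 0.08). With miR-294, Hrk rose by 0.29 ± 0.06 (adjusted p = 0.00304), and so did Pmaip1 (Noxa), which binds Mcl1, by 0.29 ± 0.10 (adjusted p = 0.0440). The call of Pmaip1 ended under 7 of 18 alternatives (up to 0.165), among them leaving out mock replicate 1 or 3, miR-294 replicate 2 or 3 or let-7c replicate 3. Without mock replicate 1 the difference was 0.19 (adjusted p = 0.165). With let-7c Pmaip1 was not called (-0.15, adjusted p = 0.314), except with the replicate number as a block, where it was lower (adjusted p = 0.0422). Among the BH3-only genes tested, Bcl2l11 was thus called lower with miR-294 and Bid, Hrk and Pmaip1 higher, Pmaip1 not under every alternative. Bad, Bik, Bmf and Bbc3 were called with neither mimic. So few genes do not set the class apart from other genes. At an unadjusted p below 0.05 in limma, and without that block, 0 of the other BH3-only genes fell with either mimic. The share of all tested genes at that unadjusted threshold is not given here.

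Among other Bcl2 relatives, Bnip3, a mitochondrial protein linked to mitophagy and hypoxia, rose with let-7c by 0.62 ± 0.12 (adjusted p = 0.00264) and its relative Bnip3l by 0.22 ± 0.05 (adjusted p = 0.00615). Bnip3 read 10.39, 10.10 and 10.03 with let-7c against 9.63, 9.54 and 9.51 with mock, with no overlap. A second Bnip3 probe set rose less, by 0.47 ± 0.09 (limma adjusted p = 0.00717 with every probe set tested and no filter). Neither was called with miR-294 (0.04 ± 0.12 and 0.00 ± 0.05), where Bok, a relative of Bax and Bak1, rose by 0.27 ± 0.08 (adjusted p = 0.0162) and Bcl2l13 by 0.27 ± 0.06 (adjusted p = 0.00295). Bok lost its call when miR-294 replicate 1 or 2 or mock replicate 2 was left out (up to 0.0608).

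Of 5 tested genes for death receptors and adaptors, 3 rose and 1 fell with let-7c, and 2 fell with miR-294. Over all tested genes, 13.9% rose and 14.8% fell with let-7c, and 21.1% fell with miR-294. The adaptor gene Tradd rose with let-7c by 0.40 ± 0.08 (adjusted p = 0.00317), and the TRAIL receptor gene Tnfrsf10b by 0.20 ± 0.06 (adjusted p = 0.0210), which did not stay below the threshold without let-7c replicate 2 or 3 or any 1 mock array (up to 0.0790). The third was the TNF receptor gene Tnfrsf1a (0.19 ± 0.05, adjusted p = 0.0178), named after its value was seen. Fadd, which recruits caspase-8, fell with miR-294 (-0.29 ± 0.08, adjusted p = 0.00977) and was -0.02 ± 0.08 with let-7c (adjusted p = 0.839).

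Cflar encodes FLIP, a relative of caspase-8 that restrains it. Its brightest probe set fell with let-7c by 0.28 (SE 0.07, adjusted p = 0.0111) and with miR-294 by 0.43 (SE 0.07, adjusted p = 0.000527). That probe set is dim (mean 6.93), and the other two did not both go the same way, with -0.01 ± 0.08 and 0.22 ± 0.11 for let-7c and -0.26 ± 0.08 and 0.14 ± 0.11 for miR-294, so the direction for Cflar is uncertain.

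Among the caspase inhibitors, 0 of 4 tested genes were called with let-7c and 3 fell with miR-294. Over all tested genes, 28.7% were called with let-7c and 21.1% fell with miR-294, and so few inhibitors do not set the class apart. Birc6 fell by 0.27 (SE 0.04, adjusted p = 0.000289) and Birc3 by 0.28 (SE 0.08, adjusted p = 0.0178). Xiap, the inhibitor that binds caspase-9 directly, fell by 0.18 (SE 0.06, adjusted p = 0.0252). Birc3 lost its call when miR-294 replicate 3 or mock replicate 1 or 2 was left out (up to 0.0723). That of Xiap ended under 7 of 18 alternatives (up to 0.0890), among them leaving out miR-294 replicate 2 or 3 or any 1 mock array. At an unadjusted p below 0.05, 0 of the 4 passed with let-7c in limma, and the share of all tested genes at that threshold is not given here.

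The DNA fragmentation factor genes split with miR-294. Dffb, the nuclease, read 7.39, 7.39 and 7.38 with mock, 7.24, 7.27 and 7.36 with let-7c, and 7.77, 7.92 and 7.86 with miR-294. The miR-294 arrays were all above the rest. Dffb rose by 0.47 ± 0.05 with miR-294 (adjusted p = 3.26e-05), while its inhibitor Dffa, which caspases cleave, fell with both mimics, by 0.24 with miR-294 (SE 0.05, adjusted p = 0.00360) and by 0.30 with let-7c (SE 0.05, adjusted p = 0.00144). With let-7c the difference of Dffb was -0.09 ± 0.05 (adjusted p = 0.190). Casp6, the other caspase tested, was called with neither mimic (0.05 ± 0.13 and 0.20 ± 0.13).

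**Figure D3:**
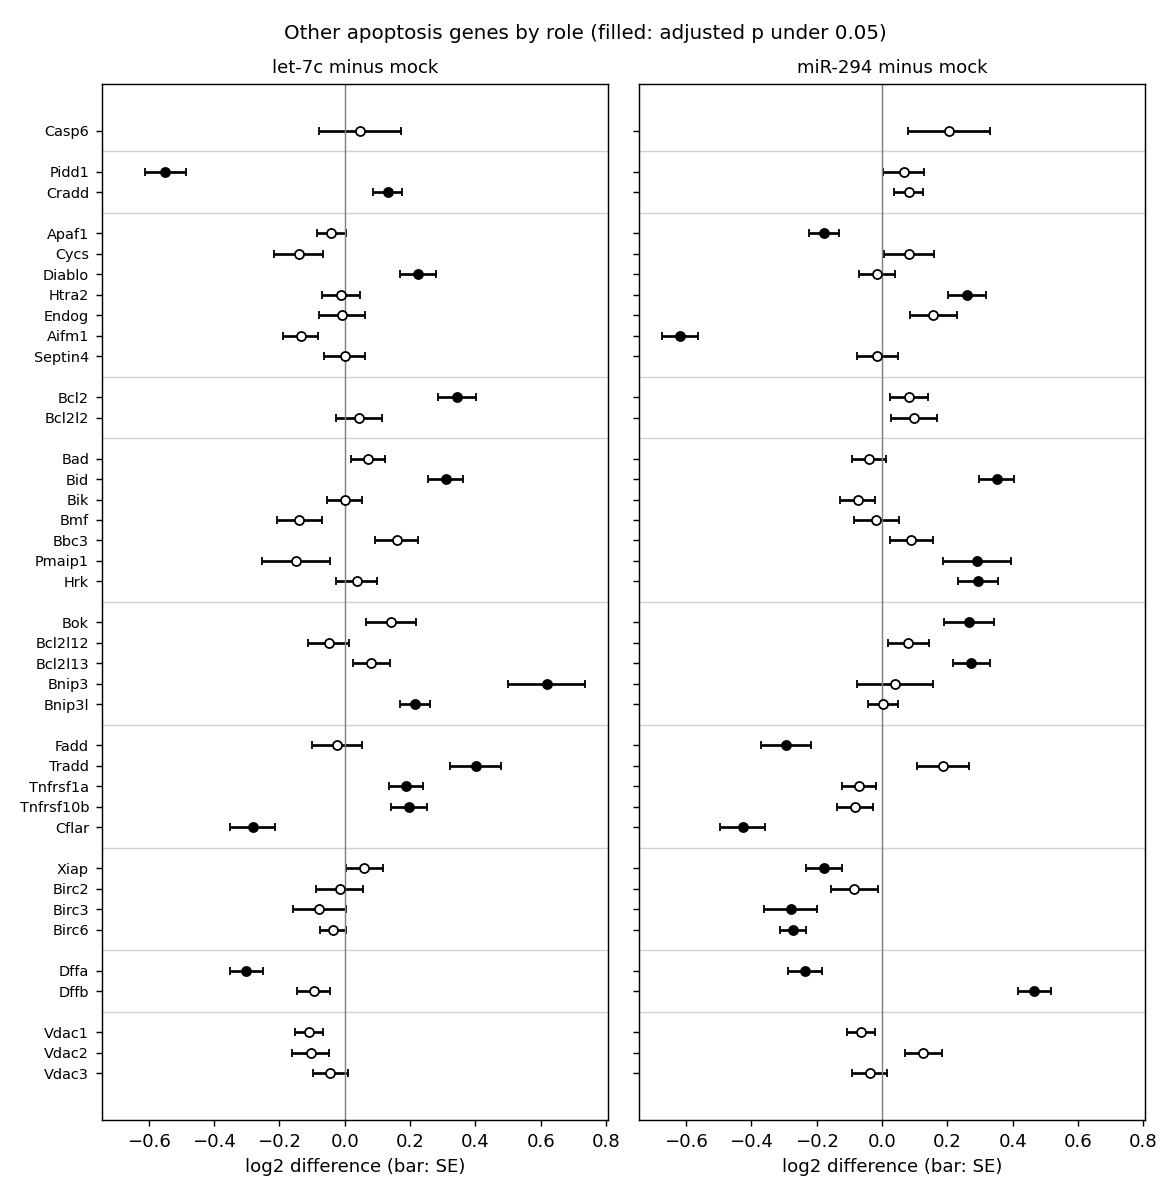
Log2 differences from mock of the 38 other tested apoptosis genes, let-7c left and miR-294 right, grouped by role in the order of the lists with grey lines between lists; bars are standard errors and filled points have an adjusted p below 0.05. Pidd1 (-0.55) and Bnip3 (0.62) stand out with let-7c, and Aifm1 (-0.62) and Dffb (0.47) with miR-294.

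In the direct comparison of the mimics, the largest differences among these genes were those of Pidd1, of Bnip3 (0.58 ± 0.12, adjusted p = 0.00150, higher with let-7c), of Dffb (-0.56 ± 0.05, adjusted p = 3.9e-06, higher with miR-294) and of Aifm1 (0.48 ± 0.05, adjusted p = 2.16e-05, higher with let-7c). The second Bnip3 probe set differed less, by 0.40 ± 0.09. The BH3-only genes Pmaip1 (-0.44 ± 0.10, adjusted p = 0.00419) and Hrk (-0.26 ± 0.06, adjusted p = 0.00482) were lower with let-7c. Xiap (0.24 ± 0.06, adjusted p = 0.00395) and Birc6 (0.24 ± 0.04, adjusted p = 0.000471) were higher with let-7c. So was Fadd (0.27 ± 0.08, adjusted p = 0.0117), which lost its call without let-7c replicate 3 (0.0517) and read 0.18 without miR-294 replicate 3 (0.0374). Bcl2 was higher with let-7c too (0.26 ± 0.06, adjusted p = 0.00281), but it passed the filter only through its let-7c arrays. Vdac2, a mitochondrial channel that binds Bak1, was lower with let-7c (-0.23 ± 0.06, adjusted p = 0.00514), while Vdac1, Vdac2 and Vdac3 were not called against mock. At an unadjusted p below 0.05 in limma, Vdac1 passed with let-7c (0.0270) and Vdac2 with miR-294 (0.0474), where a second Vdac2 probe set was higher than mock by 0.21 ± 0.05 (adjusted p = 0.00710 with every probe set tested and no filter). For the members, that comparison gives the order Casp2 (1.05), Bak1 (0.60), Mcl1 (0.32) and Bcl2l11 (0.21), all in favour of let-7c, while Casp9 (0.10) and Bcl2l1 (-0.02) were not called.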

How the data were processed

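The deposited table holds 1 log2 value per probe set and array. The submitters' processing notes name GCRMA (background correction, normalization between arrays and summary of probes); the sources used here give neither its version nor its settings, and the log2 scale was read from the values. The values were used as deposited. Genes were named from GEO's annotation, from the 21789 probe sets with 1 symbol; 1621 had several and 12147 none. For each of 19938 genes the probe set with the highest mean was used, and genes above the 40th percentile of their array on 3 arrays or more were tested, which left out 6756. A single limma 3.58.1 fit (R 4.3.3; lmFit, eBayes, no trend, two-sided) held all 9 arrays and 3 group means, and was tested on simulated data. The number of arrays limits the precision.

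Named were all members, and of each role list the most changed called genes, at most 3 per comparison, plus the 3 genes most alike each called member (predicted and clone names left out). Members and lists were chosen with earlier results of these data known. Alternatives were 2 filters, 2 scalings, 2 ways to treat several probe sets, an intensity trend with a robust prior, only the groups compared, a replicate block and each array left out. Same-numbered arrays deviated together in the comparisons with mock (r of their deviations from group means 0.133 to 0.418 for let-7c and 0.272 to 0.363 for miR-294), which meets the rule used here for pairs (every r above 0.1); the labels give no origin for such pairing. The values reported come from the fit without the block, which is an alternative only.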

Additional observations from a re-analysis of the deposited data

How the results depend on the processing

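Under the 18 alternatives no member changed its direction in any comparison. The members called were 2 to 4 with let-7c (3 in the report), 3 to 5 with miR-294 (4) and 4 to 5 between the mimics (4), and the apoptosis list genes called were 9 to 13 (12), 12 to 18 (15) and 17 to 23 (20). Of 324 member results under the alternatives, 306 kept their side of the threshold, 13 lost the call (Casp2 with let-7c and Mcl1 with miR-294) and 5 gained it (Casp9 and Bcl2l1), as given beside each. With the replicate block 4557 genes were called for let-7c (3783 without it) and 6185 for miR-294 (5521), no call of a member or tested list gene was lost, and 2 list genes gained one, Pmaip1 with let-7c (-0.15, adjusted p = 0.0422, against 0.314) and Endog with miR-294 (0.16, 0.0239 against 0.0991). Between the mimics the numbers were not taken as pairs, since the lowest r missed the rule used here (r 0.0285 to 0.248). There 5 of 6 arrays matched best with their own number, the same as for let-7c against mock. Between the mimics the block called 7231 genes (6694 without it), with 0 calls lost and 3 gained among the list genes (Endog, Cflar and Birc3). Over the alternatives the genes called were 2693 to 4557 for let-7c, 4505 to 6185 for miR-294 and 5958 to 7305 between the mimics. The calls of Casp2 with let-7c (-0.15) and Mcl1 with miR-294 (-0.13) did not hold under every alternative. Some larger differences with miR-294, such as those of Pmaip1 (0.29) and Birc3 (-0.28), lost their call too, while Bcl2l11 (-0.18) kept its call. The size of a difference alone thus did not set which calls held with 3 arrays per group.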
